A study of Mus musculus with 16 samples.

Results

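The Rel family encodes the subunits of NF-κB, and the IκB kinases and their relatives control when those subunits reach the nucleus. This account follows 10 such genes, Rel, Rela, Relb, Nfkb1, Nfkb2, Chuk, Ikbkb, Ikbkg, Ikbke and Tbk1, through 16 expression arrays. Of the 10, 8 have a probe set paired with exactly 1 gene symbol, among 19938 genes in all, and Nfkb1 and Chuk were not analysed here. Each of the 8 has 1 such probe set, so no choice between probe sets was needed. RNA came from proliferating mouse embryonic fibroblasts (MEFs) of mixed C57Bl/6 x 129Sv background that either lacked SIMPL, the product of Irak1bp1 (SIMPL-/- MEFs, titled IRAK1BP1-/-), or were derived from littermate controls (littermate MEFs, titled WT). Cells of each genotype were given recombinant human TNFα at 10 ng/ml or left untreated, and 4 arrays were hybridized for each of the groups SIMPL-/- with TNFα, SIMPL-/- untreated, littermate with TNFα and littermate untreated. The labels give 45 min of TNFα and the methods 60 min. The methods describe fibroblasts grown from 1 embryo at a time, 4 times for each genotype, and no source pairs treated with untreated arrays. The loss was carried by the mouse line, so other cell types in a culture would lack SIMPL too.

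Values are log2 intensities after robust multiarray averaging (RMA), a summary of the probes of a probe set, and a step of 1 is a doubling. Levels of different probe sets were not set against each other. On this scale Irak1bp1 lay between 5.08 and 5.62 on the 8 SIMPL-/- arrays and between 7.65 and 8.21 on the 8 littermate arrays, so the arrays fit their genotype labels. Whether its probe set lies inside the deleted part was not examined. Of 12 fibroblast markers, 12 were measured, with a mean log2 value of 12.2 in each SIMPL-/- group and 12.4 in each littermate group. These means hide larger differences of single markers (SIMPL-/- minus littermate), from −2.78 to 1.70 after TNFα and from −2.87 to 1.69 without. Array medians lay between 6.67 and 6.76. With 4 arrays a group, small differences can be missed.

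In resting cells, dimers of Rel family proteins are held in the cytoplasm by IκB proteins. TNFα activates a complex of IKKα, IKKβ and the scaffold NEMO, which marks IκB for destruction and frees the dimers, and this canonical pathway needs no new synthesis of its own parts. The products of Nfkb1 and Nfkb2 are made as long precursors whose processing yields p50 and p52, while RelA (p65), c-Rel and RelB carry the domains that activate transcription. The kinases IKKε and TBK1 are relatives of the IκB kinases best known for switching on interferon genes. Several Rel family genes are themselves NF-κB targets.

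The stretches of DNA in front of the genes are shown because the Rel family genes rose together. RefSeq windows of assembly GRCm38.p6, from 250 bases before an annotated start to 50 bases after it, were matched by symbol to 6 of the 8 measured genes and searched on both strands for the κB consensus, the decamer that Rel dimers bind. No window was matched to Relb or Ikbkb, so these genes were not searched. Overlapping matches were counted one by one. At least 1 match was present in 8.46% of the 32851 mouse windows of this length and for 9.55% of the 27025 genes that have a window. Matches were found for 2 of the 6 genes, Rel and Nfkb2, and none was found in the windows of Rela, Ikbkg, Ikbke and Tbk1. A match is a stretch of letters and was not tested for binding. Below are the 250 bases before the start of Rel, of Nfkb2 (1 of its 3 windows) and of Rela, with κB matches in capitals.
Rel, chr11:23770970-23771219, minus strand: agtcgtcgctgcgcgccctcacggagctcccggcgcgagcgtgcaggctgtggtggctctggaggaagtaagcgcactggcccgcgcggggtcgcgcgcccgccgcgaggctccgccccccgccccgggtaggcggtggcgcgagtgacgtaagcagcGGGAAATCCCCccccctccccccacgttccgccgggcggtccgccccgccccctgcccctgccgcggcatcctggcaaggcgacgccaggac
Nfkb2, chr19:46304487-46304736, plus strand: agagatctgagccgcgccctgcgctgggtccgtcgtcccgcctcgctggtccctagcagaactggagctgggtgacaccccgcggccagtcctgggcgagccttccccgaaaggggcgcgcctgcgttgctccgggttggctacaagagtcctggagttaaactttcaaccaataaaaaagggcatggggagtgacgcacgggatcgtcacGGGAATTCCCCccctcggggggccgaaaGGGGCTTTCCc
Rela, chr19:5637291-5637540, plus strand: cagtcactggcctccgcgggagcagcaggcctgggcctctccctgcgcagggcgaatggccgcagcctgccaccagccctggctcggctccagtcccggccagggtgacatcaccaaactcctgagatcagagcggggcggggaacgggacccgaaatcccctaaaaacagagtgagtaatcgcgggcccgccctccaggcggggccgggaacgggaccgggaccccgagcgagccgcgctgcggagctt
In Rel the capitals are 2 overlapping matches, the first of which begins 92 bases before the start. In the Nfkb2 window the capitals are 3 matches, which begin 39, 38 and 11 bases before the start, and the other windows of Nfkb2 hold 2 and 1 matches. These overlap, and the match GGGACTTTCC lies in each of them.

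TNFα raised all 4 measured Rel family genes in each genotype, and the 4 measured kinase genes did not pass the test in either. At an adjusted p under 0.05 from limma (Benjamini-Hochberg over 19938 genes, the rule for every call below), 4 of 8 members rose and 0 fell in SIMPL-/- MEFs, where 1.73% of all genes rose and 1.39% fell. In littermate MEFs the counts were again 4 and 0, where 2.7% of all genes rose and 2.45% fell. The median log2 response of the Rel family genes was 0.97 in SIMPL-/- MEFs and 1.15 in littermate MEFs, against −0.02 and 0.01 over all genes. That of the kinase genes was −0.02 in SIMPL-/- MEFs and 0.04 in littermate MEFs.

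**Figure D1:**
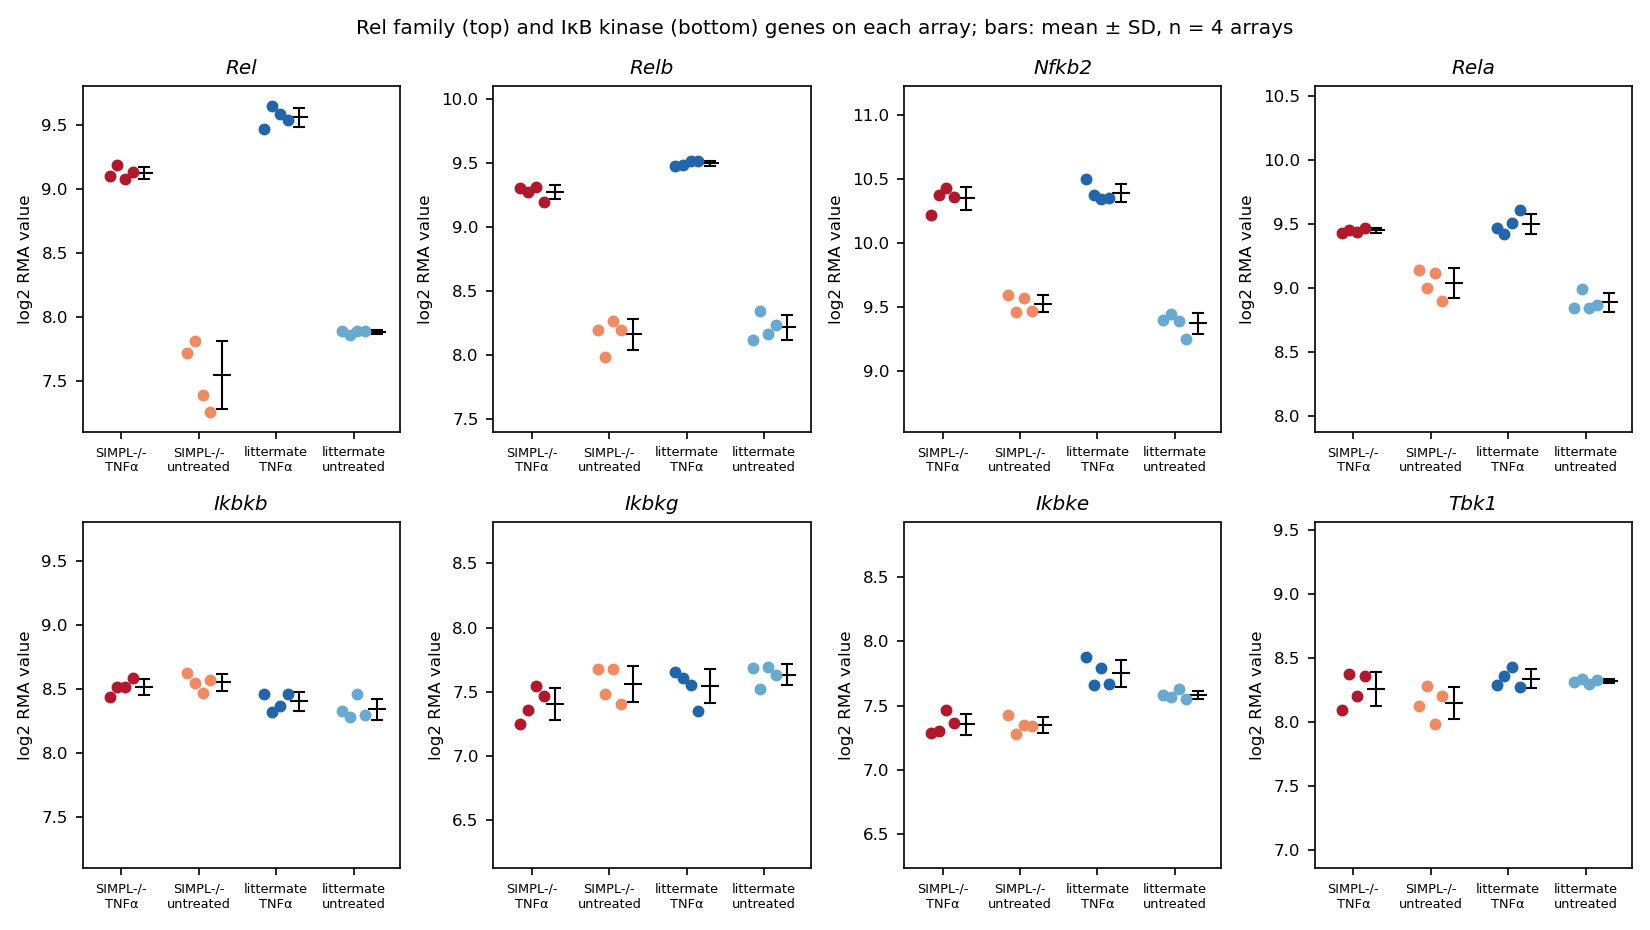
Log2 RMA value of each gene (vertical axis, 1 panel a gene, each spanning the same 2.7 log2 units around the gene's own midrange) on the 4 arrays of each group (points), with the mean ± SD of the group beside them. The TNFα arrays lie above the untreated arrays of the same genotype in every Rel family panel, and Ikbke lies lower on SIMPL-/- than on littermate arrays.

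Rel encodes c-Rel, the family member best known from lymphocytes, and had the largest response of the 8. In SIMPL-/- MEFs its log2 values were 9.10, 9.19, 9.08 and 9.14 with TNFα, against 7.72, 7.82, 7.40 and 7.26 on untreated arrays. In littermate MEFs they were 9.47, 9.65, 9.58 and 9.54 with TNFα, against 7.89, 7.86, 7.90 and 7.89 untreated. Treated and untreated arrays did not overlap in either genotype, nor did those of the next 3 genes, as for 3.87% of all genes in SIMPL-/- MEFs and 5.29% in littermate MEFs that were higher with TNFα. The untreated SIMPL-/- Rel arrays were spread more widely (SD 0.26) than those of the other groups (SD 0.02 to 0.08). The rise was 2.98-fold in SIMPL-/- MEFs (log2 1.58, SE 0.09, adjusted p = 9.90e-10) and 3.20-fold in littermate MEFs. By size of response Rel ranked 14 among all genes in SIMPL-/- MEFs and 28 in littermate MEFs.

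Relb encodes RelB, which pairs with p52 in the slower, noncanonical pathway. It stood at 9.31, 9.27, 9.31 and 9.19 with TNFα in SIMPL-/- MEFs, against 8.19, 7.98, 8.26 and 8.20 without. In littermate MEFs the values were 9.48, 9.48, 9.51 and 9.52 with TNFα, against 8.12, 8.34, 8.16 and 8.24 without. The lowest treated array of each genotype was clear of its highest untreated array. Its rise was 2.16-fold in SIMPL-/- MEFs (log2 1.11, SE 0.06, adjusted p = 1.00e-09) and 2.43-fold in littermate MEFs.

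Nfkb2 encodes p100, which is both the precursor of p52 and an inhibitor that holds RelB in the cytoplasm. Treated SIMPL-/- arrays had values of 10.22, 10.38, 10.43 and 10.36, and untreated SIMPL-/- arrays 9.59, 9.46, 9.57 and 9.47. Treated littermate arrays had 10.49, 10.38, 10.34 and 10.35, and untreated littermate arrays 9.40, 9.45, 9.39 and 9.25. The treated arrays of the genotypes covered much the same range, and every one of them lay above every untreated array. Nfkb2 rose 1.77-fold in SIMPL-/- MEFs (log2 0.82, SE 0.06, adjusted p = 5.27e-08) and 2.03-fold in littermate MEFs (log2 1.02, SE 0.06, adjusted p = 1.13e-09).

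Rela encodes p65, the subunit that carries most of the activating power of canonical NF-κB and the partner of SIMPL in the nucleus. In SIMPL-/- MEFs it had values of 9.43, 9.45, 9.44 and 9.47 with TNFα, against 9.14, 8.9998, 9.12 and 8.89 untreated. In littermate MEFs it had 9.47, 9.42, 9.50 and 9.61 with TNFα, against 8.84, 8.99, 8.84 and 8.87 untreated. Groups did not overlap here either, though the rise was the smallest of the Rel family genes. It came to 1.33-fold in SIMPL-/- MEFs (log2 0.41, SE 0.06, adjusted p = 0.000414) and 1.53-fold in littermate MEFs (log2 0.61, SE 0.06, adjusted p = 1.51e-06). The SIMPL-/- value lies under the fold change of 1.5 that the methods required, and with that rule 3 rather than 4 genes rose in SIMPL-/- MEFs.

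In each genotype the estimates of the response came in the order Rel, Relb, Nfkb2 and Rela. The gaps between neighbours are given as a description, with no test, since the order itself chose the pairs. In SIMPL-/- MEFs the response of Rel exceeded that of Relb by 0.47 log2 units, that of Relb exceeded that of Nfkb2 by 0.29, and that of Nfkb2 exceeded that of Rela by 0.41. In littermate MEFs these gaps were 0.39, 0.26 and 0.41. The log2 ratio of the neighbouring genes was higher on every treated than on every untreated array of the genotype for 4 of the 6 gaps. Treated and untreated arrays overlapped in this ratio for Rel over Relb in SIMPL-/- MEFs and for Relb over Nfkb2 in littermate MEFs. The same estimates chose the pairs and the direction of each ratio, which favours such a separation. The count of 4 is therefore no support for the order. A probe set can compress a fold change, which was not tested here.

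**Figure D2:**
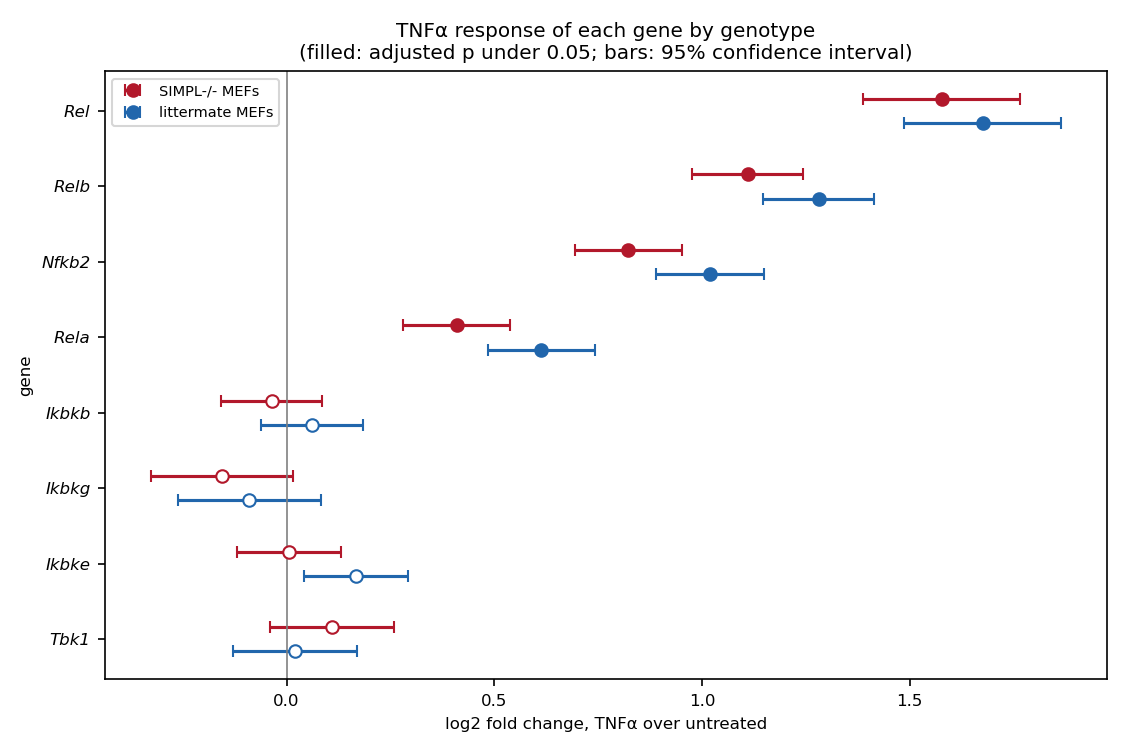
TNFα response of each gene (log2 fold change, horizontal axis) in SIMPL-/- and littermate MEFs, with 95% confidence intervals from limma. Filled points passed an adjusted p under 0.05: these are the 4 Rel family genes, and the intervals of the 2 genotypes overlap for each of them.

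The responses of the Rel family genes were smaller in SIMPL-/- MEFs by estimate, but for 0 of them did the difference pass the test. The difference between the responses, SIMPL-/- minus littermate, was −0.10 for Rel (95% confidence interval −0.37 to 0.17), −0.17 for Relb (−0.36 to 0.02), −0.20 for Nfkb2 (−0.38 to −0.01) and −0.20 for Rela (−0.39 to −0.02). Adjusted p values from limma lay between 0.337 and 0.788. At an unadjusted p under 0.05, Rela and Nfkb2 had smaller responses, as did 8.26% of all genes, while at the adjusted threshold 0.441% did and 0.537% differed in either direction. Estimates below 0 were found for 7 of the 8 members, Tbk1 being the exception, and for 58.7% of all genes. Put as shares, the log2 response in SIMPL-/- MEFs was 94.1% of that in littermate MEFs for Rel, 86.6% for Relb, 80.7% for Nfkb2 and 66.8% for Rela. A share gives no level: by estimate Rela and Nfkb2 were each 0.15 higher in SIMPL-/- MEFs untreated and 0.05 lower after TNFα. None of these level differences passed. The unadjusted intervals of Rel and Relb include 0, and those of Nfkb2 and Rela do not. The contrast uses all 4 groups, so it shares arrays with each response.

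The kinase genes moved little with TNFα. Ikbkb encodes IKKβ, the kinase that phosphorylates IκBα after TNFα, and had values of 8.44, 8.52, 8.52 and 8.59 in SIMPL-/- MEFs with TNFα, against 8.62, 8.55, 8.47 and 8.57 without. In littermate MEFs its values were 8.46, 8.32, 8.37 and 8.47 with TNFα, against 8.33, 8.28, 8.47 and 8.30 without. Treated and untreated arrays overlapped in both genotypes. The 95% confidence interval of the response ran from −0.16 to 0.09 in SIMPL-/- MEFs and from −0.06 to 0.18 in littermate MEFs, which keeps it within a change of 1.5-fold.

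Ikbkg encodes NEMO, the scaffold that ties the kinases to ubiquitin chains. Its values were 7.25, 7.36, 7.54 and 7.46 in treated and 7.68, 7.48, 7.67 and 7.41 in untreated SIMPL-/- MEFs. They were 7.66, 7.61, 7.55 and 7.35 in treated and 7.69, 7.52, 7.69 and 7.63 in untreated littermate MEFs. The estimates were below 0 in both genotypes, at −0.16 (−0.33 to 0.02) in SIMPL-/- MEFs and −0.09 (−0.26 to 0.08) in littermate MEFs, and the arrays overlapped.

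Tbk1 encodes TBK1, an activator of IRF3. It stood at 8.09, 8.38, 8.21 and 8.35 in treated and 8.12, 8.28, 7.99 and 8.20 in untreated SIMPL-/- MEFs. In littermate MEFs the values were 8.29, 8.36, 8.43 and 8.27 with TNFα and 8.31, 8.33, 8.30 and 8.32 without, and the last of these groups was the tightest of the 4. The response was 0.11 (95% confidence interval −0.04 to 0.26) in SIMPL-/- MEFs and 0.02 (−0.13 to 0.17) in littermate MEFs.

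Ikbke encodes IKKε, which unlike the other kinases is known as an inducible enzyme of immune cells. Treated SIMPL-/- arrays had 7.29, 7.30, 7.46 and 7.36 and untreated ones 7.43, 7.28, 7.35 and 7.34. Treated littermate arrays had 7.88, 7.66, 7.79 and 7.67 and untreated ones 7.59, 7.57, 7.63 and 7.55. The groups overlapped in SIMPL-/- MEFs, and in littermate MEFs every treated array lay above every untreated one, as for 5.29% of all genes. The response there, 0.17 (SE 0.06), did not pass the test over all genes (adjusted p = 0.137). In SIMPL-/- MEFs it was 0.01 (95% confidence interval −0.12 to 0.13), and the difference between the responses, −0.16, had an adjusted p of 0.439.

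Between the genotypes, SIMPL-/- MEFs had less Rel and Ikbke mRNA than littermate MEFs with and without TNFα, less Relb after TNFα, and more Ikbkb without it. Of the 8 members, 0 were higher and 3 lower after TNFα, 37.5% of them, where 36.3% of all genes were called (17.8% higher, 18.4% lower). Without TNFα 1 was higher and 2 were lower, again 37.5%, where 40.9% of all genes were called (23.3% higher, 17.6% lower). The share of members that differed was thus close to that of all genes.

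After TNFα, Rel was at 0.741 of its littermate level in SIMPL-/- MEFs (log2 difference −0.43, SE 0.09, adjusted p = 0.000744), and without TNFα at 0.793 (−0.33, SE 0.09, adjusted p = 0.00642). Every SIMPL-/- array was below every littermate array of the same treatment, which held for 17.2% of all genes after TNFα and for 17.5% without. Of the untreated SIMPL-/- arrays, those with 7.72 and 7.82 lay near the littermate arrays and those with 7.40 and 7.26 farther off. The untreated difference was lost with the methods' t-test (adjusted p = 0.0959). Because cultures were measured in bulk, fewer cells of a type and less RNA per cell cannot be told apart.

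Ikbke was at 0.759 of its littermate level after TNFα (log2 difference −0.40, SE 0.06, adjusted p = 2.65e-05) and at 0.849 without (−0.24, SE 0.06, adjusted p = 0.00429). With TNFα the SIMPL-/- arrays spanned 7.29 to 7.46 and the littermate arrays 7.66 to 7.88. Untreated, they spanned 7.28 to 7.43 and 7.55 to 7.63. Every SIMPL-/- array was thus below every littermate array of the same treatment, as for 17.2% of all genes after TNFα and 17.5% without. Relb was at 0.855 after TNFα (−0.23, SE 0.06, adjusted p = 0.00847), with treated arrays from 9.19 to 9.31 in SIMPL-/- and from 9.48 to 9.52 in littermate MEFs. Without TNFα its arrays overlapped, and its difference was −0.06 (95% confidence interval −0.19 to 0.08). Ikbkb was 1.16-fold higher in untreated SIMPL-/- MEFs (0.21, SE 0.06, adjusted p = 0.00778), and its difference after TNFα, 0.11, had an adjusted p of 0.148.

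The other members had differences of at most 0.17 in either direction that did not pass. Untreated, Rela and Nfkb2 each differed by 0.15 (adjusted p = 0.0572 and 0.0565), and Tbk1 by −0.17 (adjusted p = 0.0643). These 3 lay so near the threshold that leaving out 1 array carried some of them over it. Rela passed without array 2 (untreated littermate) or 12 (untreated SIMPL-/-), at 0.19 and 0.20, Nfkb2 without array 2 or 13 (treated SIMPL-/-), at 0.18 and 0.15, and Tbk1 without array 10 (untreated SIMPL-/-) or 13, at −0.21 and −0.17. After TNFα the differences of Rela and Nfkb2 were −0.05 each, with confidence intervals of −0.18 to 0.08 and −0.17 to 0.08.

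**Figure D3:**
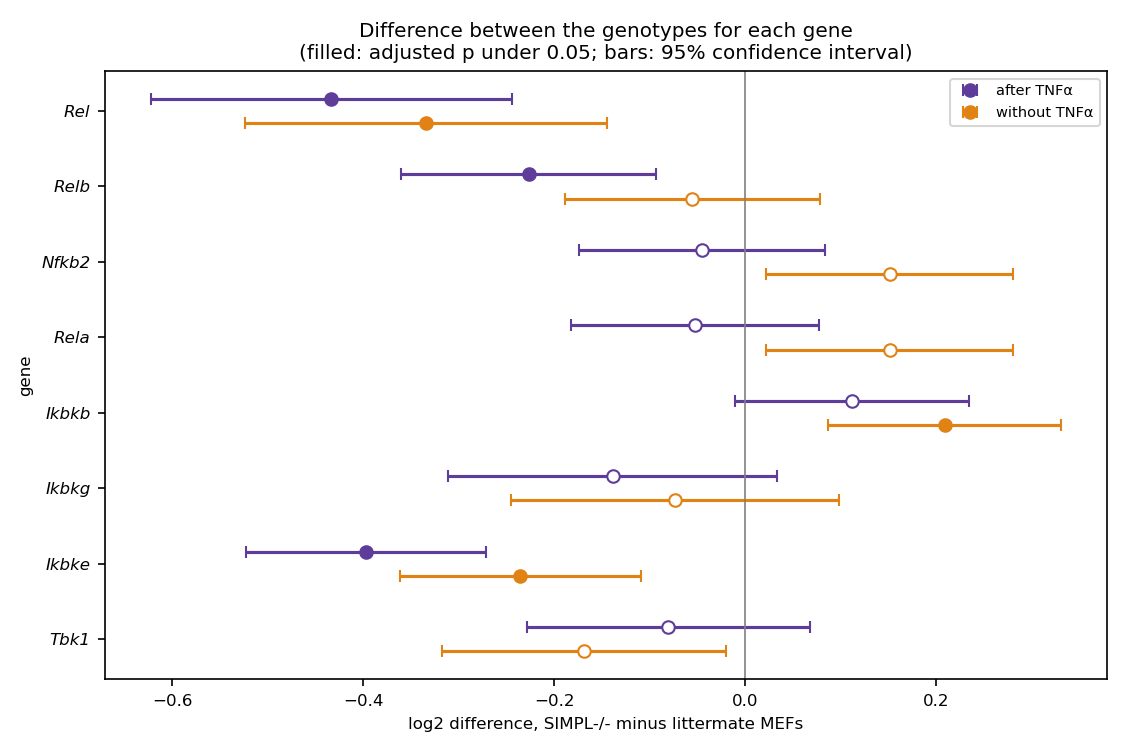
Difference between SIMPL-/- and littermate MEFs for each gene (log2, horizontal axis), after TNFα and without it, with 95% confidence intervals from limma. Filled points passed an adjusted p under 0.05. Rel and Ikbke are lower in SIMPL-/- MEFs under both conditions, and the untreated estimates of Nfkb2 and Rela lie on the other side of 0.

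Markers of myeloid cells moved with the genotype in the same direction as Rel and Ikbke. The list held 25 symbols, with Emr1 and Adgre1 naming the same gene, and 22 markers were measured. Of these, 22 were lower in SIMPL-/- MEFs with TNFα and 22 without, with median log2 differences of −2.26 and −2.19. Their summed linear level ran from 5276 to 5624 in SIMPL-/- MEFs with TNFα, against 25290 to 34236 in littermate MEFs with TNFα. Untreated, it ran from 5104 to 5718 in SIMPL-/- MEFs and from 24204 to 30697 in littermate MEFs. The panleukocyte marker Ptprc averaged 6.34 in treated SIMPL-/- MEFs and 8.52 in treated littermate MEFs, and array values have no true zero. Of 6 epithelial markers, 3 were higher with TNFα and 5 without in SIMPL-/- MEFs and 0 were lower. Their median log2 differences were 0.63 with TNFα and 0.68 without, and the largest were 2.08 and 2.13. Of 12 fibroblast markers 3 were higher and 7 lower in each condition. Lymphoid (7 measured), mast cell (6) and endothelial (7) markers gave 1, 1 and 1 lower and 0, 0 and 3 higher calls after TNFα, and 1, 1 and 0 lower and 0, 1 and 2 higher calls without it. Of all genes, 17.8% were higher and 18.4% lower after TNFα, and 23.3% were higher and 17.6% lower without it. In a list of 6 or 7 markers, 1 call lies under these shares, and the endothelial markers called higher lie above them. The lymphoid call was Il7r, with a large difference of −1.88 after TNFα and −1.18 without. The part of other cells in the differences of Rel, Relb, Ikbke and Ikbkb was not tested. With TNFα itself, 0 myeloid markers passed in SIMPL-/- MEFs and 2 rose in littermate MEFs.

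The genes most like each Rel family gene were looked up by the root mean square difference over the 16 arrays, after each gene was centred on its own mean. For Rel they were Birc3, an inhibitor of apoptosis (0.20 log2 units), Ch25h, which makes 25-hydroxycholesterol (0.21), and Stx11, a syntaxin (0.23). For Relb they were the adhesion molecule Vcam1 (0.15), the kinase Sik1 (0.16) and the chemokine Cxcl1 (0.16). Hexokinase 2 (Hk2, 0.11), Gch1, which starts tetrahydrobiopterin synthesis (0.13), and the AP-1 subunit Junb (0.13) lay nearest to Nfkb2. Mapk6, a MAP kinase (0.08), the repressor Tgif1 (0.09) and Nfkbib, which encodes IκBβ (0.09), lay nearest to Rela. Choice by likeness to genes that rose with TNFα fixes a rise in the 12, and their responses ran from 0.39 for Mapk6 to 1.57 for Ch25h in SIMPL-/- MEFs and from 0.59 for Nfkbib to 2.08 for Stx11 in littermate MEFs.

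Around the Rel family and the kinases, most IκB protein genes rose in SIMPL-/- MEFs and all of those measured rose in littermate MEFs. Most upstream components did not pass the test. Of 6 measured IκB proteins, 4 rose in SIMPL-/- MEFs and 6 in littermate MEFs, with median log2 responses of 0.91 and 1.20. Nfkbia (IκBα), the inhibitor resynthesized first after TNFα, rose by 2.93 in SIMPL-/- MEFs (SE 0.06, adjusted p = 3.26e-16) and by 3.34 in littermate MEFs, a difference of −0.40 that passed (adjusted p = 0.0427). Bcl3, a nuclear IκB protein that binds p50 and p52, rose by 1.30 in SIMPL-/- MEFs and 1.81 in littermate MEFs. Its response was smaller in SIMPL-/- MEFs (difference −0.51, SE 0.10, adjusted p = 0.0295), which makes 2 such calls in this list with Nfkbia. Untreated, Bcl3 was higher in SIMPL-/- MEFs by 0.33 (adjusted p = 0.00144), with group means of 8.71 and 8.38. After TNFα its means were 10.01 in SIMPL-/- and 10.19 in littermate MEFs. Nfkbia was lower in untreated SIMPL-/- MEFs (−0.27, adjusted p = 0.00172), and its means after TNFα were 11.27 and 11.94. Nfkbie (IκBε) rose by 2.18 in SIMPL-/- MEFs and 2.57 in littermate MEFs, a difference of −0.40 that did not pass (adjusted p = 0.249). Nfkbib (IκBβ) rose by 0.53 in SIMPL-/- MEFs and 0.59 in littermate MEFs. Nfkbiz and Nfkbid, the other nuclear forms, had responses of 0.18 and 0.14 in SIMPL-/- MEFs that did not pass and rose by 0.59 each in littermate MEFs. The differences between their responses, −0.41 and −0.45, did not pass (adjusted p = 0.106 and 0.151). Nfkbiz averaged 7.96 after TNFα in each genotype, and untreated it was higher in SIMPL-/- MEFs by 0.41 (adjusted p = 0.000241).

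Of 18 measured adaptors and ubiquitin enzymes that act upstream of the kinases, 4 rose and 1 fell in SIMPL-/- MEFs, and 4 rose and 0 fell in littermate MEFs. Tnfaip3 (A20), Birc3 and Tnip1 rose in both, and Tab1, which encodes a partner of the kinase TAK1, fell by 0.21 in SIMPL-/- MEFs (adjusted p = 0.0369) and had a response of −0.03 in littermate MEFs. Tnip1, a partner of A20, rose by 0.57 in SIMPL-/- MEFs and 0.77 in littermate MEFs. Birc2 rose in littermate MEFs alone among the calls (0.53, adjusted p = 0.00128), and Tab3 in SIMPL-/- MEFs alone (0.26, adjusted p = 0.0439), but the difference between the responses was called for Tnfaip3 alone in this list. The median response of the list was −0.01 in SIMPL-/- MEFs and 0.03 in littermate MEFs, close to that of all genes.

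Of 7 measured genes of the noncanonical pathway, 0 passed in SIMPL-/- MEFs and 4 rose in littermate MEFs. These were Map3k14, the NF-κB inducing kinase (0.29, adjusted p = 0.0167), and the receptors Cd40 (0.35), Tnfrsf1b (0.32) and Tnfrsf12a (0.39). The difference between the responses was called for 0 of the 7, so these rises are not shown to differ between the genotypes. Of 7 measured partners of TBK1 and IKKε, 0 passed in either genotype.

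**Figure D4:**
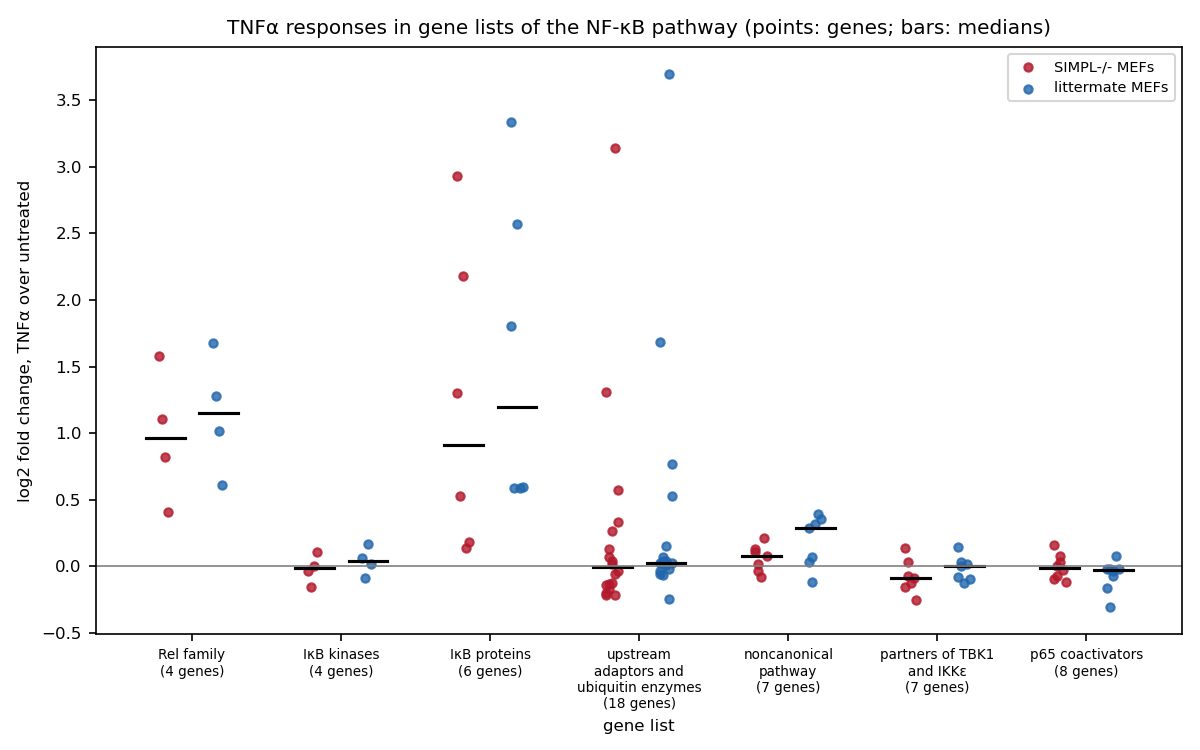
TNFα responses (log2 fold change, vertical axis) of the genes of each list (points) in SIMPL-/- and littermate MEFs, with the median of each list as a bar. The Rel family and the IκB proteins lie above 0, and the kinases and the partners of TBK1 and IKKε lie around it.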

How the data were processed

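The authors deposited 1 table of log2 values for 28853 probe sets of Affymetrix Mouse Gene 1.0 ST arrays, which per the submitters' notes were made with RMA in Partek. The versions of RMA and Partek are not given in the sources used here, and the methods name Affymetrix Microarray Suite instead. Arrays were grouped by their titles. GEO's platform table names 1 gene for 21789 probe sets, several for 1621 (left out) and none for 5443. Symbols were updated by gene ID through RefSeq, and the brightest probe set stood for each of 19938 genes. No filter on dim genes was used.

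In R 4.3.3 with limma 3.58.1, all 16 arrays entered 1 model of 4 group means with moderated variances, and p-values were two-sided and adjusted by Benjamini-Hochberg over all genes. The procedure was tested on simulated data. The members, the pathway lists and the marker lists were chosen with earlier results of these data known. All measured members were described, with the 3 genes most like each member that rose over 1.5-fold. Pathway genes were named where their TNFα response passed the test, and those under 1.5-fold after their values were seen. The coactivator genes Ncoa1, Ncoa3 and Med1, whose TNFα responses did not pass, were named after their genotype differences were seen. The methods state that each set of fibroblasts was analysed individually, but the labels do not tie arrays to embryos, so some of the spread may be technical. RMA evens out the intensity distributions of arrays, so changes are relative to the average gene.

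Alternatives were other scalings, dropping dim genes, averaging probe sets, other variance settings, array weights, fits to the compared arrays only, the methods' t-test, other thresholds and leaving out each array.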

Additional observations from a re-analysis of the deposited data

Results flagged for a closer look

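Untreated littermate array 2 lay apart from the other arrays of its group for 2 genes, Rel and Rela. For Rel it had a log2 value of 7.86 against 7.89 for the nearest array, and the gap was 0.849 of the group's range. For Rela it had 8.99 against 8.87, a gap of 0.85 of the range. An array was called apart above Dixon's 95% critical value, which chance gives in about 5% of groups, and 32 groups were examined.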

How the results depend on the processing

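Under all alternatives 4 members rose with TNFα in each genotype, except 3 in SIMPL-/- MEFs at a fold over 1.5 and p under 0.001, and 0 responses differed between the genotypes. The genotype counts depended more on the settings. Members higher without TNFα numbered 1, but 3 with quantile normalization, with dim genes left out or with trend and robust moderation, 2 with array weights, 0 at a fold over 1.5 and p under 0.001, and 1 to 3 when each array was left out (3 without array 2, 2 without array 12 or 13). Members lower without TNFα numbered 2, but 3 with dim genes left out or array weights, 1 with the methods' t-test, 0 at a fold over 1.5 and p under 0.001, and 2 to 3 when each array was left out (3, with Tbk1, without array 10 or 13). After TNFα, 1 member was higher with quantile normalization (Ikbkb, 0.16), and 0 were lower at a fold over 1.5 and p under 0.001. Estimates near 0 changed sign for Relb untreated (0.0022 with quantile normalization) and for the response of Ikbke in SIMPL-/- MEFs (−0.0043 with array weights), neither of them a call. With each array left out, the response of Tbk1 in littermate MEFs ran from −0.010 to 0.042, that of Ikbke in SIMPL-/- MEFs from −0.031 to 0.031 and the untreated difference of Relb from −0.090 to 0.0037. Centring the arrays gave 357 genes higher and 131 lower with TNFα in SIMPL-/- MEFs, against 345 and 278, and 57 genes with a smaller response in SIMPL-/- MEFs, against 88. The causes of these changes were not tested. No paired analysis was possible because no label or method pairs the arrays. No scaling moved the median of all genes by over 0.04.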

Other observations

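Of 8 measured coactivators of p65, 6 were below their littermate level in SIMPL-/- MEFs both after TNFα and without it, where 18.4% and 17.6% of all genes were lower. The median log2 difference was −0.26 after TNFα and −0.31 without, against 0.03 and 0.07 over all genes. Ncoa1 and Ncoa3, which encode members of the steroid receptor coactivator family, had differences of −0.68 and −0.52 after TNFα (SE 0.07 each, n = 4 arrays per group, adjusted p = 1.30e-07 and 4.28e-06 from limma) and of −0.57 and −0.58 without. Ep300, which encodes the acetyltransferase p300, had differences of −0.22 after TNFα and −0.53 without, and it fell by 0.31 with TNFα in littermate MEFs (adjusted p = 0.00917). Med1, which encodes a subunit of Mediator, was higher after TNFα (0.17, SE 0.05, adjusted p = 0.0156) and had a difference of −0.01 without it. The 22 myeloid markers, which were lower in SIMPL-/- MEFs, moved with the same contrast, and their part in these differences was not tested.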
